A study of Rattus norvegicus albus with 14 samples.

Results

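The heat shock chaperones described here are 10 genes named by symbol: Hspb1, Cryab, Hspb7 and Hspb8 of the small heat shock proteins, the co-chaperone Bag3, the HSP70 system genes Hspa8, Dnajb1 and Hsph1, the cytosolic HSP90 gene Hsp90aa1, and the mitochondrial chaperonin Hspd1. They matched 11 of the 32545 gene IDs in the count tables, because Hspa8 has 2 IDs, and 10 of these IDs had a count above 0 in a library. After the filter on low counts 9 members remained, 1 ID each. RNA had been sequenced from cultured ventricular myocytes of 1-day-old Sprague-Dawley rats, pooled after isolation, preplated to take out fibroblasts and held without serum in a medium with insulin, transferrin and selenium. All cultures received 1% DMSO, the solvent, and the treated ones also received 10 µmol/L rosiglitazone, an agonist of the nuclear receptor PPARγ. The DMSO group was sampled at 0.5 h, as 1 library, and the rosiglitazone groups at 0.5, 24 and 48 h, as 2 libraries each. Vehicle at 24 and 48 h was not analysed here, and without it time with the drug and time in culture cannot be told apart. Whether replicate libraries stem from different cultures is not stated in the labels. The p-values therefore rest on the spread among these libraries, and that spread may be only technical.

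Chaperones bind proteins that are unfolded or partly folded. Small heat shock proteins hold such clients without using ATP, and Cryab and Hspb7 are among those expressed in striated muscle. HSPB8 works in a complex with BAG3, which links it to HSP70 and to the removal of damaged proteins by autophagy, including proteins of the sarcomere. HSPA8 is the constitutive HSP70 of the cytosol, DNAJB1 brings clients to it and stimulates its ATPase, and HSPH1 exchanges its nucleotide. HSPD1 is the HSP60 chaperonin that folds proteins inside mitochondria together with its lid HSPE1. Many of these genes can be induced by heat shock factor 1, the product of Hsf1.

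Levels are in CPM, the count relative to the scaled library size, not divided by gene length, so they are compared between libraries and not between genes. The libraries held 10886559 to 28074620 counts, the lowest being rosiglitazone 48 h replicate 2. Markers of cardiomyocytes moved between the libraries: 16 of 17 listed genes, among them cardiac myosins and troponins, passed the filter and none of the 16 was at 0 in any library. Their summed level was 9860 CPM in the DMSO library, 17050 and 16430 CPM with rosiglitazone at 0.5 h, 14800 and 3734 CPM at 24 h, and 402 and 2028 CPM at 48 h. Markers of fibroblasts summed to 50100 to 51640 CPM in the 0.5 h libraries and to 17360 to 35050 CPM in the later ones, and smooth muscle markers to 2910 to 3634 CPM and 63.0 to 1011 CPM. The fibroblast markers did not move together, since Col1a1 was called lower in the later groups (log2 -1.37 ± 0.34, edgeR adjusted p 0.0459) and Dcn higher (1.94 ± 0.33, adjusted p 0.0159), and 3 of the 9 tested had positive estimates. Macrophage markers summed to 1005 CPM in the DMSO library and to 171 to 476 CPM in the 6 rosiglitazone libraries, and endothelial markers from 41.5 to 199.9 CPM. In bulk RNA, fewer cells of a type and less RNA per cell cannot be told apart.

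Hspb8 rose most clearly. Its level was 74.95 CPM in the DMSO library, 82.5 and 79.4 CPM with rosiglitazone at 0.5 h, 229.5 and 421 CPM at 24 h, and 323 and 312 CPM at 48 h. All 4 later libraries lay above all 3 libraries of 0.5 h, and the 24 h libraries differed from each other by 0.87 on the log2 scale while those of 0.5 h and 48 h differed by -0.06 and -0.05 (replicate 2 minus replicate 1). Against both 0.5 h groups, the 24 and 48 h groups together were 4.13-fold higher, a log2 fold change of 2.04 ± 0.28 (SE) with an adjusted p of 0.00926 by edgeR's quasi-likelihood test. This call held with each library left out in turn, with adjusted p between 0.000329 and 0.0422. Against rosiglitazone at 0.5 h alone, the 48 h group was 3.92-fold higher (log2 1.97 ± 0.34, adjusted p 0.0206). Leaving out rosiglitazone 0.5 h replicate 1 ended that call (adjusted p 0.169), as did leaving out its replicate 2 (0.151), 48 h replicate 1 (0.12) or 48 h replicate 2 (0.0708), at log2 fold changes of 1.91 to 2.00. At 24 h the estimate against 0.5 h was of the same size, 2.01 ± 0.34, but did not pass the test (adjusted p 0.0792).

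**Figure D1:**
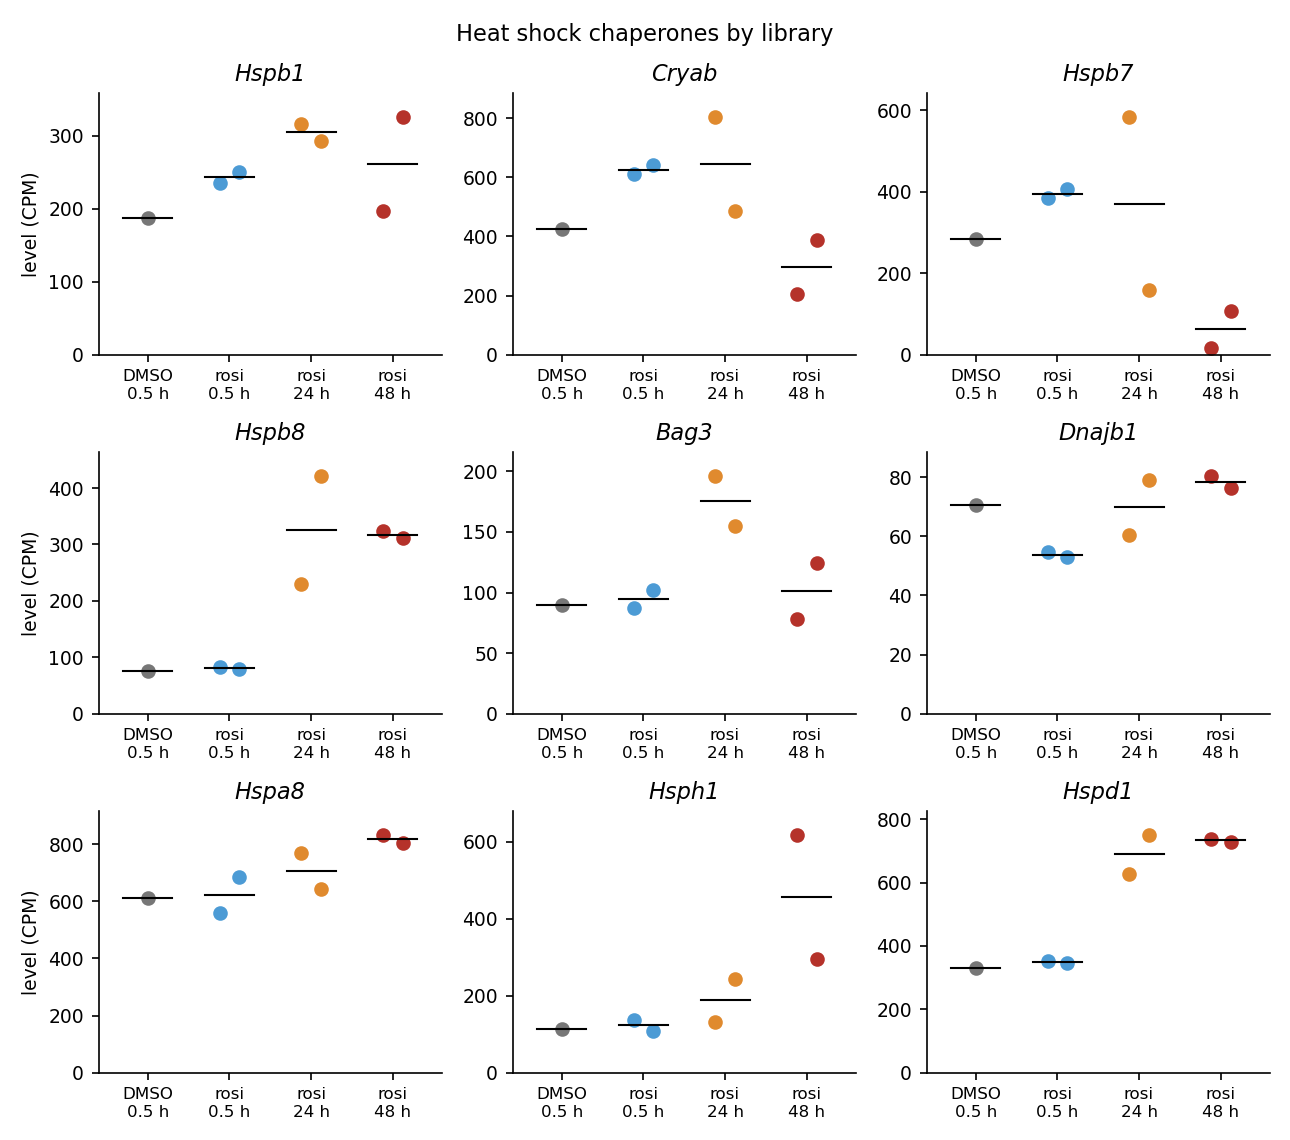
Level in CPM of the 9 measured chaperones in each library (points), by group, with the group mean (line); DMSO 0.5 h is 1 library and each rosiglitazone group is 2. Hspb8 and Hspd1 lie higher in all 4 later libraries, while Hspb7 spans 16.3 to 582.5 CPM.

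Bag3, whose product is the partner of HSPB8, was highest at 24 h. It measured 89.65 CPM in the DMSO library, 87.0 and 102 CPM with rosiglitazone at 0.5 h, 196 and 155 CPM at 24 h, and 78.3 and 124 CPM at 48 h. Both 24 h libraries were the highest, and the 48 h libraries lay on either side of the 0.5 h libraries. The 24 h group stood at log2 0.89 ± 0.31 against 0.5 h (adjusted p 0.233) and the 48 h group at -0.79 ± 0.31 against 24 h (adjusted p 0.546), and neither passed the test. The ratio of Hspb8 to Bag3 levels was 0.836 in the DMSO library, 0.948 and 0.776 with rosiglitazone at 0.5 h, 1.17 and 2.71 at 24 h, and 4.13 and 2.51 at 48 h. These are ratios of CPM and say how the pair shifted between libraries, not how many molecules of each there were.

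Among genes of the BAG3 route for sarcomere proteins, Sqstm1 and Synpo2 moved in opposite directions. Sqstm1, the autophagy receptor p62, measured 434.5 to 589.5 CPM in the 0.5 h libraries and 2004 to 2968 CPM in the later ones, a log2 fold change of 2.28 ± 0.29 for the later groups against both 0.5 h groups (edgeR adjusted p 0.00704). Synpo2, a Z-disc protein that BAG3 binds and that smooth and striated muscle express, fell from 87.8 to 128 CPM to 1.43 to 17.7 CPM, a change of -4.10 ± 0.46 (adjusted p 0.00584). Filamin C, a Z-disc client of BAG3 encoded by Flnc, stood at -0.18 ± 0.32 (adjusted p 0.778). The smooth muscle marker sum was also lower in all 4 later libraries, and the cardiomyocyte marker sum was lower in 3 of them, 24 h replicate 1 being above the DMSO library. Their part in the Synpo2 value was not tested.

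Hspb7, a small heat shock protein of heart muscle, differed most of all members between libraries of 1 group. It measured 284 CPM in the DMSO library, 384 and 406 CPM with rosiglitazone at 0.5 h, 582.5 and 159 CPM at 24 h, and 16.3 and 108 CPM at 48 h. The 24 h libraries held both the highest value and one below all 0.5 h libraries, and both 48 h libraries were the lowest. The 48 h group stood at -2.67 ± 0.90 (log2) against rosiglitazone 0.5 h, with an adjusted p of 0.128 by edgeR, and at -2.58 ± 0.90 against 24 h (adjusted p 0.481). Replicate 2 minus replicate 1 was -1.87 at 24 h and 2.72 at 48 h on the log2 scale. Over all genes the SD of that difference was 0.812 at 0.5 h, 1.60 at 24 h and 1.23 at 48 h.

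Cryab encodes αB-crystallin, which binds desmin and titin in muscle. Its level was 425 CPM in the DMSO library, 609.7 and 642 CPM with rosiglitazone at 0.5 h, 803 and 485 CPM at 24 h, and 205 and 388 CPM at 48 h. The order of the libraries was like that of Hspb7, with 24 h replicate 1 the highest and 48 h replicate 1 the lowest. Its 48 h group stood at -1.08 ± 0.40 against 0.5 h (adjusted p 0.158) and at -1.12 ± 0.40 against 24 h (adjusted p 0.496). Cryab overlaps Hspb2 in the RefSeq gene table of assembly GRCr8, and the strand setting of the counting is not given in the sources used here, so reads of the pair could be mixed. Hspb2, another muscle small heat shock protein, ranged from 7.14 to 88.1 CPM, and the ratio of Cryab to Hspb2 went from 9.12 in 24 h replicate 1 to 28.7 in 48 h replicate 1. The muscle genes Hspb6 and Hspb3 had estimates of -0.62 ± 0.37 (adjusted p 0.322) and -1.64 ± 1.03 (adjusted p 0.343) for the later groups against both 0.5 h groups. Hspb2 was at -0.71 ± 0.54 (adjusted p 0.44), so these 3 did not pass the test. Of the 4 tested genes of that list, 0 had an unadjusted p under 0.05 in this comparison, against 27.5% of all genes, and DESeq2 called 0, against 21.8%. At 48 h against rosiglitazone 0.5 h alone the estimates were lower, at -1.52 ± 0.49 for Hspb6, -1.85 ± 0.72 for Hspb2 and -2.09 ± 1.38 for Hspb3. Their edgeR adjusted p were 0.112, 0.177 and 0.420, so none passed the test. Unadjusted p was under 0.05 there for 2 of the 4, Hspb6 and Hspb2, against 22.9% of genes.

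Hspb7, which is not among the marker genes, varied together with the summed cardiomyocyte markers. Per 1000 CPM of summed cardiomyocyte markers, Hspb7 measured 28.85 CPM in the DMSO library, 22.5 and 24.7 with rosiglitazone at 0.5 h, 39.35 and 42.6 at 24 h, and 40.6 and 53.4 at 48 h. The Hspb7 level itself spanned 35.7-fold over the 7 libraries and the marker sum 42.4-fold, while Hspb7 per marker CPM spanned 2.37-fold. Cryab per 1000 marker CPM was 35.75 to 54.3 in the 0.5 h libraries and 24 h replicate 1, 129.9 in 24 h replicate 2, and 509.6 and 191.5 at 48 h, a span of 14.25-fold. The other 7 measured members spanned 35.5-fold (Hspb1) to 231-fold (Hsph1) per marker CPM. Their own levels spanned 1.49-fold to 5.65-fold, so dividing by a sum that spanned 42.4-fold had to give wider spans. These ratios share their denominator and describe the libraries only.

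**Figure D2:**
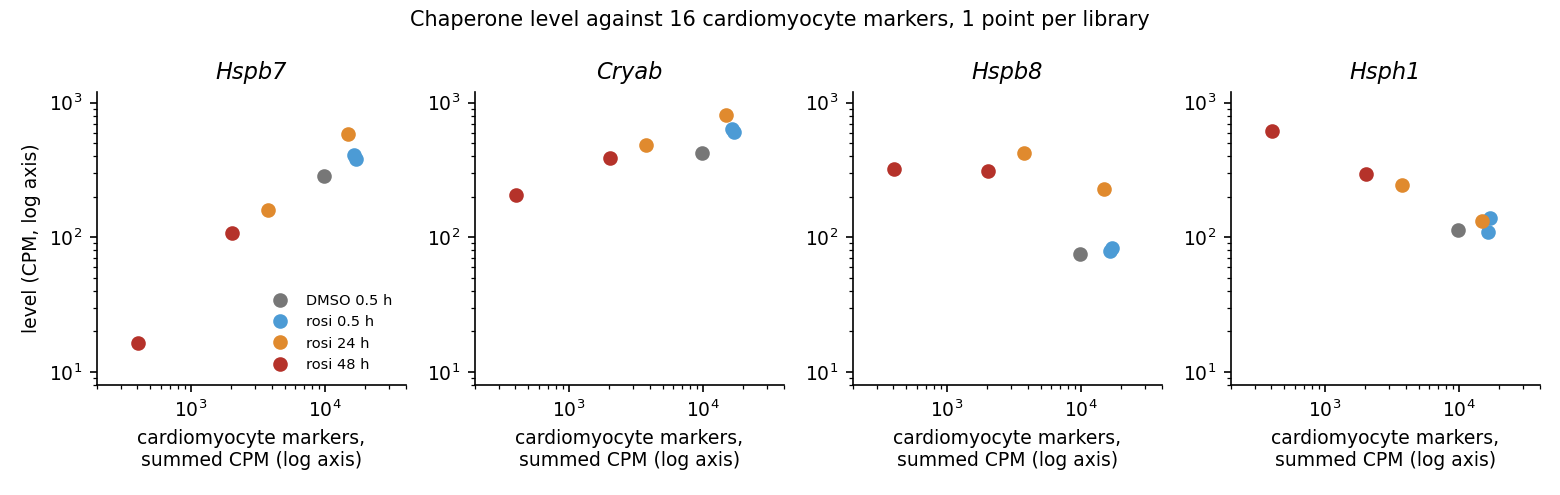
Level of 4 chaperones in CPM (vertical, log axis) against the summed CPM of 16 cardiomyocyte markers (horizontal, log axis), 1 point per library coloured by group. The Hspb7 points rise with the marker sum from 16.3 CPM at 402 CPM, those of Cryab rise less, and Hsph1 is highest, at 617.5 CPM, where the marker sum is lowest.

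Hspb1, the widely expressed HSP27, varied least among the small heat shock proteins. It measured 188 CPM in the DMSO library, 235 and 251 CPM with rosiglitazone at 0.5 h, 317 and 293 CPM at 24 h, and 197 and 325 CPM at 48 h. The libraries of 48 h spanned nearly the whole range, and the later groups overlapped the earlier ones. The later groups stood at 0.40 ± 0.24 (log2) against both 0.5 h groups, with an adjusted p of 0.329 by edgeR.

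In the HSP70 system, Hsph1 had the largest estimates and the widest spread. Hsph1 measured 113 CPM in the DMSO library, 138 and 109 CPM with rosiglitazone at 0.5 h, 132 and 245 CPM at 24 h, and 617.5 and 297 CPM at 48 h. Both 48 h libraries were above all others, and 24 h replicate 1 lay within the range of the 0.5 h libraries. The 48 h group stood at 1.89 ± 0.45 (log2, 3.70-fold) against rosiglitazone 0.5 h, with an adjusted p of 0.0514 by edgeR, over the threshold of 0.05, and of 0.00106 by DESeq2. For the later groups against both 0.5 h groups the estimate was 1.31 ± 0.36 (adjusted p 0.0626 by edgeR and 0.0041 by DESeq2). Without 48 h replicate 1 the estimate at 48 h was 1.23 ± 0.44 (adjusted p 0.25), and without 24 h replicate 1 or 2 it passed the test, at an adjusted p of 0.0148 or 0.0157.

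Hspa8 and Dnajb1 stayed within narrow ranges. The Hspa8 gene with reads measured 613 CPM in the DMSO library, 557.5 and 685 CPM with rosiglitazone at 0.5 h, 769 and 643 CPM at 24 h, and 831 and 803 CPM at 48 h. Both 48 h libraries and 24 h replicate 1 lay above all of the 0.5 h libraries, while 24 h replicate 2 lay among them, and the later groups together stood at 0.30 ± 0.22 (adjusted p 0.416). The second Hspa8 ID had 0 to 2 counts per library, and 4 further rows described as similar to HSPA8 had 0 to 66 counts, so reads shared with such copies may be missing from the main row. Small nucleolar RNA genes also lie within Hspa8 in the RefSeq table of GRCr8. Dnajb1 measured 70.5 CPM in the DMSO library, 54.8 and 52.8 CPM with rosiglitazone at 0.5 h, 60.5 and 79.0 CPM at 24 h, and 80.3 and 76.25 CPM at 48 h. Its lowest values were the rosiglitazone 0.5 h libraries rather than the DMSO library, and the 48 h group stood at 0.54 ± 0.27 against them (adjusted p 0.281). The ratio of Hsph1 to Hspa8 levels was 0.16 to 0.247 in the 0.5 h libraries and reached 0.743 in 48 h replicate 1.

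Hsp90aa1, the inducible cytosolic HSP90, was listed at 0 counts in all 7 libraries, so no level or fold is given for it. A count of 0 allows up to 3 counts, which corresponds to 0.107 to 0.276 CPM depending on the library and covers counting error only. A row described as an HSP 90-alpha locus, LOC103692716, held 4 to 48 counts per library. The constitutive partner Hsp90ab1 was measured at 2444 CPM in the DMSO library, 2210 and 2812 CPM with rosiglitazone at 0.5 h, 3954 and 3577 CPM at 24 h, and 3438 and 4058 CPM at 48 h. All of its later values lay above the 0.5 h values, at a log2 fold change of 0.60 ± 0.25 that did not pass the test (edgeR adjusted p 0.166). How reads that map to more than 1 locus were treated is not given in the sources used here, and its part in the 0 counts was not tested.

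Hspd1 rose between 0.5 h and the later times. Its level was 331 CPM in the DMSO library, 352 and 347 CPM with rosiglitazone at 0.5 h, 628 and 749 CPM at 24 h, and 738 and 729 CPM at 48 h. All later libraries lay above all earlier ones, and the libraries of a group differed by at most 0.25 on the log2 scale. The later groups were 2.09-fold higher than both 0.5 h groups (log2 1.06 ± 0.21, edgeR adjusted p 0.0258). The call did not hold when rosiglitazone 0.5 h replicate 1 (adjusted p 0.145), its replicate 2 (0.13), 48 h replicate 1 (0.078) or 48 h replicate 2 (0.0661) was left out, while the log2 fold change stayed between 0.98 and 1.12. At 48 h against rosiglitazone 0.5 h alone it stood at 1.07 ± 0.26, with an adjusted p of 0.0552.

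Several genes that work beside HSPD1 in mitochondria were tested with it. Of 5 listed genes for mitochondrial folding and proteolysis, 4 were called higher in the later groups against both 0.5 h groups, against 3.43% of all genes, and the fifth, the protease subunit Clpp, stood at 0.68 ± 0.27 (edgeR adjusted p 0.154). Not all 4 of these calls held when any 1 of the rosiglitazone 0.5 h or 48 h libraries was left out. Nor did all of them hold with the replicate number as a block in the fit, where 2 of 64 genes of the wider chaperone network were called higher. The protease Lonp1 measured 147 to 187 CPM in the 0.5 h libraries and 349.9 to 635 CPM in the later ones (log2 1.64 ± 0.29, adjusted p 0.0167). Hspe1, the HSP10 lid of the HSPD1 chaperonin, measured 44.6 to 53.5 CPM and 95.7 to 151 CPM (1.27 ± 0.26, adjusted p 0.0278). Grpel1, the nucleotide exchange factor of mitochondrial HSP70, stood at 1.106 ± 0.25 (adjusted p 0.0361), and Clpx, the unfoldase partner of Clpp, at 0.86 ± 0.21 (adjusted p 0.0413). Hspa9, the mitochondrial HSP70 itself, measured 449 to 509 CPM in the 0.5 h libraries and 476 CPM in 24 h replicate 1, against 861 to 1194 CPM in the other later libraries, and did not pass the test (0.92 ± 0.36, adjusted p 0.151). Trap1, the mitochondrial HSP90, stood at 0.17 ± 0.22 (edgeR adjusted p 0.663), and its later libraries overlapped the earlier ones. Hspd1 overlaps Hspe1 in the RefSeq table of GRCr8. The ratio of Hspd1 to Hspe1 ranged from 4.15 in 24 h replicate 1 to 7.885 in rosiglitazone 0.5 h replicate 1.

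**Figure D3:**
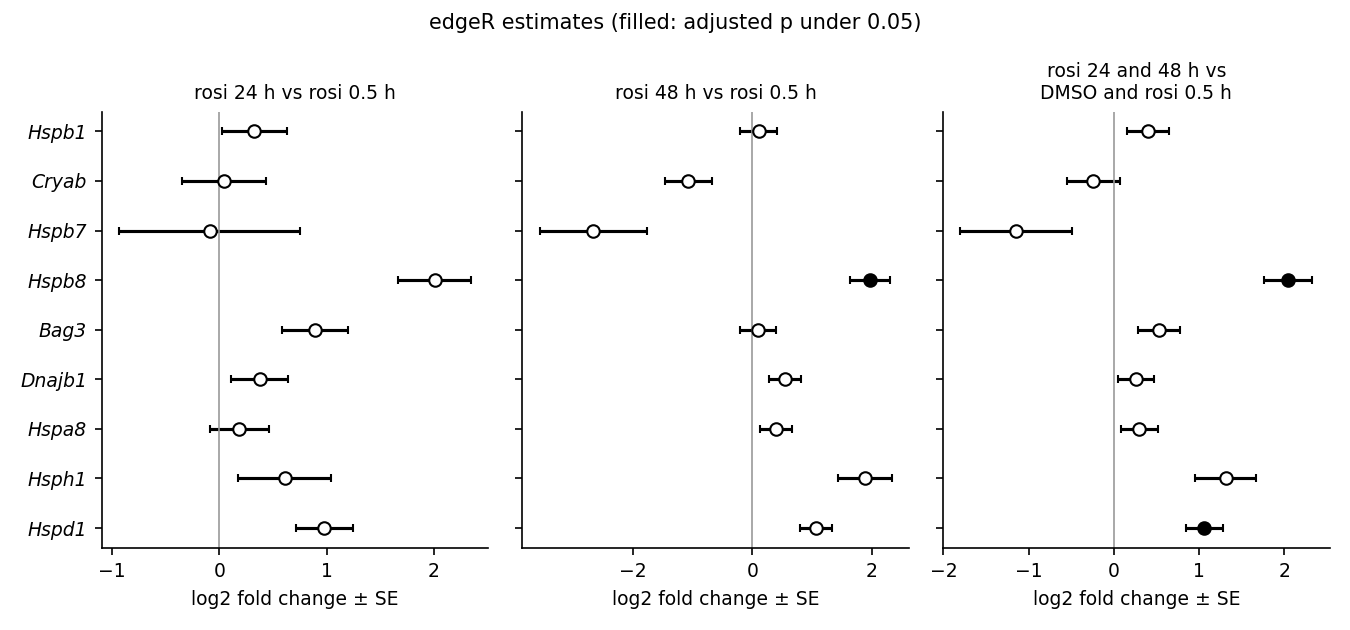
Log2 fold change (points) with SE (bars) of the 9 measured chaperones in 3 comparisons from edgeR, filled where the adjusted p was under 0.05. Hspb8 passes at 48 h (1.97) and over both later times (2.04), Hspd1 over both later times (1.06), and Hspb7 has the lowest estimate, -2.67, with the widest bar.

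The first comparison asked what rosiglitazone did within 0.5 h, with 1 DMSO library on 1 side. No member was called (0 of 9), as were 0% of the 15655 genes tested with edgeR, and no member had an unadjusted p under 0.05, against 0.607% of all genes. DESeq2 called 0 members and 0.0128% of genes. Estimates ran from -0.39 ± 0.32 for Dnajb1 to 0.56 ± 0.49 for Cryab (log2). The authors' deposited table gave an adjusted p under 0.05 for 4 members, against 11.0% of the genes with a value there. These were Cryab at 0.55, Hspb7 at 0.46, Hspb1 at 0.36 and Dnajb1 at -0.38 (log2) in the authors' deposited table. For this and the later comparisons, the authors' deposited tables hold the 2 splits of each library as separate columns. Whether their test counted splits as replicates is not stated in the sources used here. The authors' SE for Cryab was 0.068, against 0.518 by DESeq2 on the summed libraries. The summed cardiomyocyte markers were also higher in both rosiglitazone libraries than in the DMSO library, while all 10 macrophage markers had negative estimates (median log2 -1.57, 5 with an unadjusted p under 0.05). The part of either set in the Cryab and Hspb7 values was not tested.

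The later comparisons asked how levels changed over the exposure, and they share libraries, so their values are given side by side and are not independent. At 24 h against 0.5 h, 0 of 9 members were called, against 0.0958% of genes. Unadjusted p was under 0.05 for 3 members (Hspb8, Hspd1 and Bag3), against 15.7% of genes, and DESeq2 called Hspb8 and Hspd1, against 8.39% of genes. The authors' deposited table called 5 members, against 39.0% of genes, all higher at 24 h: Hspb8 at 1.96, Hspd1 at 0.9955, Bag3 at 0.90, Dnajb1 at 0.39 and Hspb1 at 0.345.

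At 48 h against 24 h, 0 of 9 members and 0% of genes were called by edgeR. Unadjusted p was under 0.05 for Hsph1, Hspb7, Cryab and Bag3, that is 4 members, against 8.14% of genes, and DESeq2 called only Hspb7 of the members, against 3.48% of genes. The authors' deposited table called 4 members, against 16.5% of genes, with Hsph1 at 1.13, Hspb7 at -1.765, Cryab at -1.03 and Bag3 at -0.77. Hspb8 and Hspd1 stood at -0.03 ± 0.33 and 0.09 ± 0.26 between these times by edgeR, after values near 2 and 1 between 0.5 and 24 h.

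At 48 h against 0.5 h, 1 of 9 members was called, Hspb8, against 6.59% of genes in either direction and 1.97% higher. Unadjusted p was under 0.05 for 5 members, against 22.9% of genes, and DESeq2 called 4 (Hspb8, Hsph1, Hspd1 and Hspb7), against 18.0% of genes. For both later groups against both 0.5 h groups, 2 of 9 members were called, Hspb8 and Hspd1, against 10.2% of genes in either direction and 3.43% higher. Unadjusted p was under 0.05 for 3 members, against 27.5% of genes, and DESeq2 called 3 (Hspb8, Hsph1 and Hspd1), against 21.8% of genes. Levels in all 4 later libraries were above all 3 earlier ones for 2 of 9 members, against 14.2% of genes. The median log2 fold change in this last comparison was 0.40 over the 9 members and -0.07 over all genes tested.

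The wider chaperone network was read from 9 lists with 67 other genes, of which 64 were tested. For both later groups against both 0.5 h groups, 51 of the 64 had a positive estimate, against 47.3% of all genes, 11 were called higher, against 3.43% of genes, and 1 was called lower (Synpo2), against 6.78%. The median log2 fold change was 0.53 over these genes and -0.07 over all genes. The number called higher depended on which library was left out, as did the calls over all genes. Without the DMSO library it was 6, where 6.79% of all genes were called in either direction. It was lower still when any 1 of the rosiglitazone 0.5 h or 48 h libraries was left out, and higher than with all libraries when either 24 h library was left out. With the replicate number as a block in the fit it was 2, where 3.64% of all genes were called in either direction. With each library left out in turn, the median over the network genes stayed between 0.45 and 0.55.

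Of 13 genes for HSP90 and its co-chaperones, edgeR called 3 higher in this comparison, against 3.43% of all genes, and none lower. DESeq2 called 7 of them higher, Hsp90ab1 among them, against 21.8% of all genes in either direction. Ppid, the cyclophilin of HSP90 complexes, measured 31.15 to 40.05 CPM in the 0.5 h libraries and 85.3 to 123 CPM in the later ones (log2 1.63 ± 0.25, edgeR adjusted p 0.0114). Ahsa1, which stimulates the HSP90 ATPase, measured 101 to 115 CPM and 206 to 215 CPM (0.99 ± 0.19, adjusted p 0.0234), and Chordc1 stood at 1.08 ± 0.24 (adjusted p 0.0359). Unc45b, the myosin chaperone of striated muscle, was the only gene of this list with a negative estimate, at -1.26 ± 0.54 (adjusted p 0.183).

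Of 10 HSP40 genes, 2 were called higher, against 3.43% of all genes. Dnaja1, a partner of HSPA8 in the cytosol, stood at 0.95 ± 0.21 (edgeR adjusted p 0.0323). Dnaja3, which acts in mitochondria, stood at 1.18 ± 0.26 (adjusted p 0.0337). Dnajb6 stood at 0.73 ± 0.21 (adjusted p 0.0695). DESeq2 called these 3 of the 10 higher, against 21.8% of all genes in either direction. Of 7 tested HSP70 regulators, edgeR called 1 higher, against 3.43% of all genes. This was Bag1, a nucleotide exchange factor of the BAG family (1.20 ± 0.23, adjusted p 0.0235), from 77.4 to 103 CPM to 167 to 224.9 CPM. Stub1, the ubiquitin ligase CHIP, stood at 0.95 ± 0.25 (adjusted p 0.0526) and St13 at 0.68 ± 0.20 (adjusted p 0.0719). DESeq2 called 4 of the 7 higher, Bag1, Stub1 and St13 among them, against 21.8% of all genes in either direction. Of 10 tested HSP70 family genes 0 were called by edgeR, with Hspa4l, a relative of Hsph1, at 1.98 ± 0.54 (adjusted p 0.0612) and Hspa12b at -1.32 ± 0.39 (adjusted p 0.0748). In this list 4 genes had an unadjusted p under 0.05, against 27.5% of all genes in either direction. DESeq2 called Hspa4l higher and Hspa12b lower, against 21.8% of all genes in either direction. The inducible HSP70 gene Hspa1a was listed at 0 counts in all libraries and Hspa1b measured 0.69 to 3.63 CPM. As for Hsp90aa1, the part of reads that map to more than 1 locus in these values was not tested.

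All 8 subunit genes of TRiC, the cytosolic chaperonin that folds actin and tubulin, had positive estimates, against 47.3% of all genes, and none was called by edgeR. Unadjusted p was under 0.05 for 5 of them, against 27.5% of all genes in either direction, and DESeq2 called 5 higher, against 21.8% in either direction. The smallest adjusted p were 0.0551 for Cct4 (0.88 ± 0.23), 0.0835 for Cct3 (0.68 ± 0.21) and 0.0937 for Cct2 (0.67 ± 0.22). Of 4 heat shock factor genes, 0 were called by edgeR. In this list 1 gene (Hsf1) had an unadjusted p under 0.05, against 27.5% of all genes, and DESeq2 called Hsf1, against 21.8%. Hsf1 measured 26.02 CPM in the DMSO library, 31.5 and 21.3 CPM with rosiglitazone at 0.5 h, 35.8 and 52.9 CPM at 24 h, and 56.8 and 52.9 CPM at 48 h. Every later value of Hsf1 was above the earlier ones, which held for 14.2% of all genes, at 0.91 ± 0.275 (edgeR adjusted p 0.0793). The later values of Hsf2 were also all above the earlier ones, at 70.6 to 104.5 CPM against 57.6 to 62.7 CPM. Hsf2 stood at 0.44 ± 0.23 (adjusted p 0.258), Hsbp1, which binds heat shock factor 1, at 0.04 ± 0.30 (adjusted p 0.974), and Hsf4, at 0.0707 to 1.51 CPM, at 2.34 ± 1.70 (adjusted p 0.413).

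**Figure D4:**
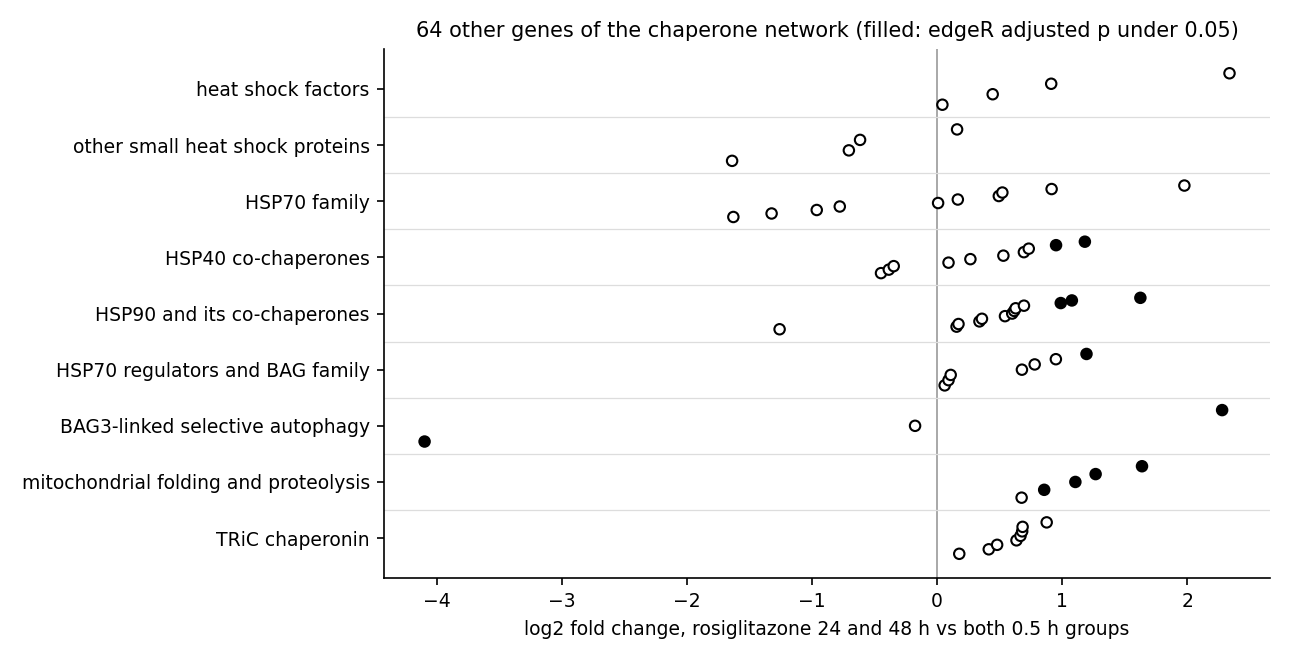
Log2 fold change of 64 other chaperone network genes, by list, for rosiglitazone 24 and 48 h against both 0.5 h groups, 1 point per gene, filled where the edgeR adjusted p was under 0.05. Filled points are Sqstm1 and 10 other genes on the right and Synpo2 on the left at -4.10.

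The genes most like each member over the 7 libraries were taken by Pearson correlation of log2 CPM among 10500 genes, as a description without a test, since all share the same libraries and times. For Hspb7 they were Meis2, Unc45b and Atp1b1, at 0.997, 0.995 and 0.995. For Cryab they were Slc30a3, Irx5 and Tnni1, at 0.992, 0.986 and 0.983, of which Tnni1 is the slow skeletal troponin I of the immature heart and was among the cardiomyocyte markers. For Hspb8 they were Faf1, Hbs1l and Wdr12 (0.998, 0.994 and 0.993), for Hspd1 Neu1, Hap1 and Ghitm (0.995, 0.994 and 0.993), and for Hsph1 Hpx, Slc38a2 and Gfpt2 (0.997, 0.995 and 0.992). The nearest genes of Bag3 were Pdia3, Hmox2 and Me1 (0.988, 0.983 and 0.982), and those of Hspa8 were Rab38, Plod1 and Mob4 (0.989, 0.985 and 0.979). Dnajb1 had Cln3, Srxn1 and Sepsecs (0.977, 0.976 and 0.971), and Hspb1 had Cxxc1, Tbk1 and Trim63 (0.962, 0.956 and 0.953), so its closest genes were the least close of any member.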

How the data were processed

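Whole-number read counts per gene were deposited for every sample, and the same tables carry a log2 fold change, its standard error and a p-value for each comparison of the authors, per the file headers. FastQC 0.11.5, cutadapt 1.11, HTSeq and DESeq2 and the builds Rnor_6.0 and hg19 are named in the submitters' processing notes. The library kit keeps strand; aligner and strand setting of the counting: not given in the sources used here. The 14 samples are 7 libraries in 2 splits, which agreed within sampling noise (ratio of chi-square to degrees of freedom 0.963 to 1.02) and were summed. edgeR 4.0.16 in R 4.3.3 was fitted to 4 groups with TMM scaling, its low-count filter and robust quasi-likelihood dispersions (15655 genes, 3 residual degrees of freedom), after tests on simulated data. Adjusted p-values (Benjamini-Hochberg, threshold 0.05) cover all genes tested. CPM were computed from the counts after TMM scaling, and log2 CPM used a prior count of 2. DESeq2 1.42.0 was an alternative test, and each library was left out in turn. The members, lists and tests were chosen with earlier results of these data known. All members were named, with the 3 genes of smallest p per list in the last comparison, all heat shock factors, and the 3 genes most like each member among those averaging at least 5 CPM. Named after their values were seen were Hspa9, Hspa1a, Hspa1b, Hsp90ab1, Unc45b, Trap1, Clpx, Clpp, Col1a1 and Dcn. Promoter and protein sequences were not used here.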

Additional observations from a re-analysis of the deposited data

How the results depend on the processing

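Of 567 values of single members under an alternative, 501 kept their direction and their side of the threshold, 40 passed the test only there, 10 no longer passed it and 16 changed sign. The replicate numbers do not pair the libraries (correlations of -0.08, 0.06 and -0.12), and with the replicate number as a block the calls over all genes were 1 for 24 h against 0.5 h, 407 for 48 h against 0.5 h and 570 for both later groups against both 0.5 h groups, with 0 members called in the second and 1 in the third; Hspb8 and Bag3 at 0.5 h against DMSO then stood at -0.01 and -0.02 and Hspb8 at 48 h against 24 h at 0.01.
With DESeq2 as the test, the calls over all genes in the order of the 5 comparisons were 2, 1212, 492, 2547 and 3148, against 0, 15, 0, 1031 and 1599 with edgeR, and 2, 1 and 4 members were called in the second to the fourth. Without the filter on low counts there were 1, 334 and 19 calls in the first 3 comparisons, with 1 member called at 24 h and 2 at 48 h against 0.5 h. Fitting only the groups compared gave 174 calls at 0.5 h, 0 at 24 h and 2733 (3 members) at 48 h against 0.5 h. Treating each split as its own replicate gave 78, 5629, 2890, 6943 and 7780 calls, with 4, 4, 7 and 7 members in the last 4 comparisons.
With 1 library left out at a time, calls ranged from 0 to 1008 (members 0 to 2) at 24 h against 0.5 h, from 0 to 509 at 48 h against 24 h, from 12 to 2706 (members 0 to 4) at 48 h against 0.5 h and from 288 to 3389 (members 1 to 3) for both later groups. Signs changed within the ranges -0.05 to 0.29 for Hsph1, -0.04 to 0.19 for Bag3 and -0.14 to 0.16 for Hspa8 at 0.5 h against DMSO, -0.37 to 0.34 for Cryab and -1.31 to 0.54 for Hspb7 at 24 h against 0.5 h, -0.01 to 0.36 for Dnajb1, -0.02 to 0.21 for Hspd1, -0.40 to 0.45 for Hspb8 and -0.63 to 0.07 for Hspb1 at 48 h against 24 h, and -0.27 to 0.36 for Bag3 and -0.30 to 0.38 for Hspb1 at 48 h against 0.5 h (log2). None of these 11 values passed the test in the fit with all libraries, and the cause was not tested. The fit of only the groups compared is the same as the one reported for the last comparison. A group left with 1 library is assumed to vary like the others.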
